A study of Mus musculus with 27 samples.

Results

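Expression of 10 mouse genes tied to islet autoimmunity was measured across 27 bulk RNA sequencing libraries. The genes were listed by symbol and make up 10 of the 54446 gene identifiers counted. Of the 10, 3 encode regulators of self-antigen transcription (Aire, Deaf1 and Fezf2) and 7 encode self-antigens of the pancreatic islet (Gad1, Gad2, Ica1, Ptprn, Ptprn2, Slc30a8 and G6pc2). All libraries came from NOD mice, a strain that develops autoimmune diabetes, at 12 weeks of age. The TG+ animals were labelled Ins2-CCL21 NOD and express the lymphoid chemokine CCL21 from an insulin promoter, which is active in beta cells. The TG- animals were NOD/ShiLtJ without that transgene. Per the labels, the cells were CD45 lymphocytes of islet infiltrates (4 TG+, 4 TG-), gp38-high (2 TG+, 2 TG-) and gp38-low (4 TG+, 4 TG-) reticular-like cells of islet tertiary lymphoid organs, and fibroblastic reticular cells (FRCs) of skin-draining lymph nodes (3 TG+, 4 TG-). Here gp38 is podoplanin, a surface marker of reticular stroma. The labels do not say whether libraries of a group came from separate or pooled animals. Each p-value therefore weighs a difference against library-to-library spread, which may be technical. The class tests treated the 27 libraries as independent.

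The labels and the marker genes of the cells went against each other in many libraries, so the members were compared between 4 classes of libraries. These classes were cut from 3 genes that are not members and are not the study's groups. The Ccl21a class (Ccl21a above 1000 CPM, a lymphoid stroma chemokine) held 7 libraries, 4 labelled CD45 and 3 labelled gp38-low. Of these, 3 were TG+ and 4 TG-. The transgene also expresses CCL21, and whether its RNA adds to the Ccl21a counts of TG+ libraries was not tested. The Msln class (Msln above 100 CPM, encoding the mesothelial surface protein mesothelin) held 4 libraries, 1 from each labelled population. The Ptprc class (Ptprc above 100 CPM, encoding CD45) held 8 libraries, of which 5 were labelled lymph node FRC and 1 was labelled CD45. The remaining class held the other 8 libraries, 6 TG+ and 2 TG-. Summed leukocyte markers (10 genes) were 4354 to 7208 CPM in the Ptprc class and at most 23.5 CPM elsewhere, and summed adventitial fibroblast markers (6 genes) were highest in the remaining class, at 8554 to 14067 CPM. The leukocyte sum includes Ptprc itself, which set the class and was at 169 to 679 CPM in it. None of the 7 libraries labelled lymph node FRC fell in the Ccl21a class. Every library is therefore called the library labelled with its group.

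CPM, the unit of level used throughout, is the count of a gene scaled to a fixed total of reads in genes per library, with reads taken on the sense strand. Reads in genes numbered 8517844 to 25194443 per library, and 1 non-coding RNA, Gm26917, took 5.31% to 36.0% of them. A floor of 3 reads, the most that a count of 0 allows, was worth 0.119 to 0.352 CPM per library. Ins2 (insulin) and Cpa1 (a digestive carboxypeptidase of acinar cells) served as measures of pancreatic RNA in each library. In the Ccl21a class Ins2 was at most 0.830 CPM and Cpa1 at most 0.118 CPM. In the Msln class Ins2 was at most 0.492 CPM and Cpa1 was 13.2 to 76.6 CPM, and in the Ptprc class Ins2 was 0.805 to 82.4 CPM and Cpa1 36.8 to 500.0 CPM. The remaining class split into 4 TG+ libraries with Cpa1 at 673 to 1309 CPM (labelled gp38-low replicate 2, gp38-high replicate 1, and CD45 replicates 2 and 4) and 4 libraries with Cpa1 at 15.0 to 50.4 CPM.

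Central tolerance depends on the display of tissue proteins by medullary epithelial cells of the thymus, where the proteins Aire and Fezf2 switch on large sets of tissue-restricted genes. Deaf1 has been linked to such display outside the thymus, in lymph node stroma, including that of NOD mice. The 7 antigen genes encode proteins of islet secretory granules, synaptic-like vesicles and metabolism that T cells or autoantibodies recognise in autoimmune diabetes.

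The windows of 250 bases before the start of 4 members are shown because these members carry the patterns described below. Deaf1 was found in every library, Gad1 in the Ptprc class, Ica1 in the 3 stromal classes, and G6pc2 in libraries that also held islet hormone RNA. DEAF1 protein binds DNA at TTCG words, and the capitals mark TTCG or its reverse complement CGAA. The sequences are from RefSeq (GRCm38.p6), 5′ to 3′ on the strand of the gene. The Deaf1 window is chr7:141327726-141327975 (minus strand), upstream of the gene, Gad1 is chr2:70561879-70562128 (plus strand), inside the longer annotated span of the gene, Ica1 is chr6:8778485-8778734 (minus strand) and G6pc2 is chr2:69210823-69211072 (plus strand), just upstream of the gene.
Deaf1: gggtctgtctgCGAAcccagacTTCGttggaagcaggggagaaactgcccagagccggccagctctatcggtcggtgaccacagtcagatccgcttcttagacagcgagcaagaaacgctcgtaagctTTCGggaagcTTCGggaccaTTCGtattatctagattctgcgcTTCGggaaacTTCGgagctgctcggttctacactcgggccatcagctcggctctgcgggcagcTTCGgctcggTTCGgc
Gad1: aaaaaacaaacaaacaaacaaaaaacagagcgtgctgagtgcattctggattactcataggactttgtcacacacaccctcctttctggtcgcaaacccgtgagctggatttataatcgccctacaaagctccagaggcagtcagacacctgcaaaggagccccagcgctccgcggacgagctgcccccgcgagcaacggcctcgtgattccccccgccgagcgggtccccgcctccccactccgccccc
Ica1: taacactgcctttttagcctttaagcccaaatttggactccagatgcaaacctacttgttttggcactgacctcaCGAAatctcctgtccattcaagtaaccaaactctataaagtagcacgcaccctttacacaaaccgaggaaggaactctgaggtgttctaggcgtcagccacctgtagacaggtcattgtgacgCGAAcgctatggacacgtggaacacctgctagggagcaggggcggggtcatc
G6pc2: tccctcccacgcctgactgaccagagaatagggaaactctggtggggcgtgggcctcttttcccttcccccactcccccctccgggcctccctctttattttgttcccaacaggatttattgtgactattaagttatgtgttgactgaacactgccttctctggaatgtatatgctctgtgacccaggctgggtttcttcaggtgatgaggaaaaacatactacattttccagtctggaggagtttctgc

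TTCG words were counted on both strands in the windows of the 9 members that matched the promoter table, and a TTCGAA run counts as 2 because the words overlap. The Deaf1 window held 9, while the windows of Aire, Fezf2, Ptprn2 and Ica1 held 2 each and those of Gad1, Gad2, Ptprn and G6pc2 held 0. Of all 32851 promoters in the table, 38.7% held at least 1 word, 12.5% at least 2, and 0.00304% at least 9, which is 1 promoter. A second start listed for Deaf1 had 0 words in its window. The Deaf1 window also held 22 CG pairs and a GC share of 58.4%, against medians of 6 and 52.4% over all promoters.

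**Figure D1:**
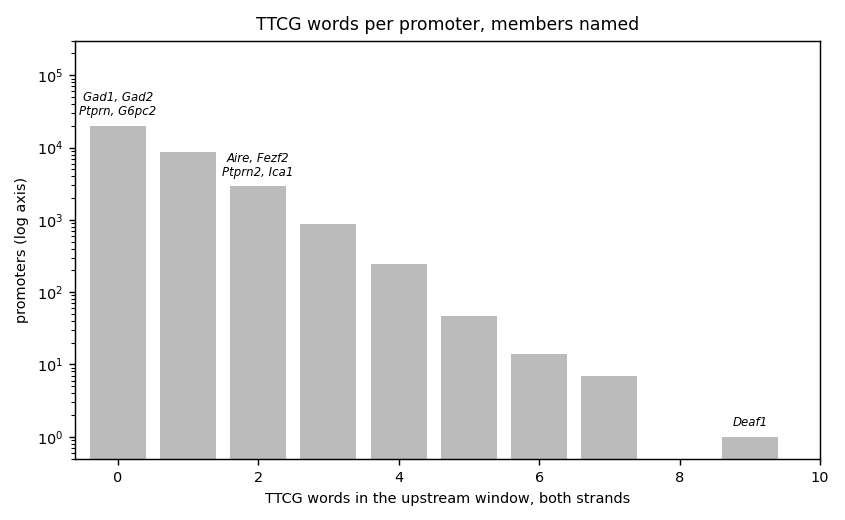
Number of promoters (vertical log axis) with each count of TTCG words in the 250 upstream bases, both strands (horizontal axis), with the members named above their bar. Deaf1 stands at 9 words, Aire, Fezf2, Ptprn2 and Ica1 at 2, and Gad1, Gad2, Ptprn and G6pc2 at 0.

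Of the 3 regulators, Deaf1 was present in all libraries, Aire gave a few reads that were mostly in the Ptprc class, and Fezf2 gave none. Deaf1 (ENSMUSG00000058886.9, chromosome 7, 141297180 to 141327690) encodes a DNA-binding transcription factor. Its level was 20.7, 25.7 and 28.9 CPM (lowest, median and highest) in the 7 libraries of the Ccl21a class. In the Msln class it was 23.1, 32.8, 27.2 and 24.6 CPM. It was 15.1, 19.1 and 23.8 CPM in the Ptprc class and in the remaining class 23.4, 25.8 and 30.4 CPM. The Ccl21a, Msln and remaining classes overlapped, and the Ptprc class lay lower, with its upper end inside their range. The mean was 19.2 ± 2.97 CPM in the Ptprc class and 26.3 ± 2.45 CPM in the remaining class (SD, n = 8 each).

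Tests across all genes, with edgeR's quasi-likelihood test and Benjamini-Hochberg adjustment, did not call Deaf1 in any class. Its log2 difference was 0.06 ± 0.13 (SE) for the Ccl21a class minus the remaining class (edgeR adjusted p = 0.725), with a 95% interval of -0.19 to 0.31. It was -0.25 ± 0.15 for the Msln class (edgeR adjusted p = 0.201) and -0.21 ± 0.12 for the Ptprc class (edgeR adjusted p = 0.130). The signs for the Ccl21a and Msln classes rest on the TMM scaling, since the unscaled means were 25.6 ± 2.69 CPM in the Ccl21a class (SD, n = 7) and 26.9 ± 4.26 CPM in the Msln class (SD, n = 4), which lie below and above the 26.3 CPM of the remaining class. In the Ptprc comparison the median log2 difference of all 17913 genes was -0.15, so the Deaf1 value lay near that of the typical gene. Without the 8 libraries with Cpa1 above 100 CPM, an alternative added after seeing the data, Deaf1 was lower in the Ptprc class by a log2 difference of -0.53 ± 0.14 (edgeR adjusted p = 0.00231) and passed the threshold in the Msln class at -0.34 ± 0.14 (edgeR adjusted p = 0.0453). The Msln value again has a sign that the scaling sets, because the mean CPM was 26.9 in the Msln class and 26.5 in the 4 libraries of the remaining class with Cpa1 at most 100 CPM, so no direction is read from it. Without the library labelled lymph node FRC TG- replicate 4 the Ptprc difference was -0.25 (edgeR adjusted p = 0.0480). Among 12201 other genes, those whose CPM followed Deaf1 most closely over the 27 libraries were Grik5, Pomgnt1 and Cyhr1 (Spearman's rho 0.846, 0.836 and 0.820), a description over libraries that share classes and depth.

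Aire (ENSMUSG00000000731.15, chromosome 10, 78030022 to 78043610) encodes the autoimmune regulator. It gave 0 to 11 reads per library in the Ptprc class, 55 in all, at 0, 0.566 and 1.15 CPM (lowest, median and highest). In the other 19 libraries it gave at most 4 reads each and 16 in all, with a highest value of 0.217 CPM. The classes overlapped, since the Ptprc class library labelled lymph node FRC TG+ replicate 2 had 0 reads. Aire rose in the Ptprc class against the remaining class by 3.68 ± 0.70 on the log2 scale (edgeR adjusted p = 3.01e-05). With the class limits doubled it was 2.70 ± 0.78 (edgeR adjusted p = 0.00399). With 55 reads against 6, this rests on very low counts in bulk libraries, in which fewer cells of a type and less RNA per cell cannot be told apart. Aire passed the filter on low counts only through Ptprc class libraries, so these p-values describe a gene selected through the class tested. It was 0.699 to 1.15 CPM in the 4 Ptprc class libraries with Cpa1 at most 100 CPM and 0 to 0.432 CPM in the 4 above. Of 5 listed markers of medullary thymic epithelium, Foxn1 and Krt5 were at 0 in every library of the Ptprc class. The other 3 were detected there: Cd80, which leukocytes also express, at 3.26 to 16.7 CPM, Epcam at 2.92 to 6.35 CPM and Trpm5 at 0 to 0.761 CPM. The 5 summed to 6.73 to 22.2 CPM in the Ptprc class and 10.3 to 185 CPM in the remaining class, and their part in the Aire reads was not tested. Epcam is also a listed marker of duct cells. Foxn1 and Krt5 were under 3 reads in every remaining class library, so the sum there is not specific to thymic epithelium. Aire shares 67 exon bases with Dnmt3l on the other strand, but 71 reads were sense and 1 was antisense.

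Fezf2 (ENSMUSG00000021743.6, chromosome 14, 12342094 to 12348189), a zinc finger regulator of medullary thymic epithelium, had 0 sense reads in 27 libraries. Over a whole class, 3 reads would be 0.0291 CPM in the Ccl21a class, 0.0421 CPM in the Msln class, 0.0301 CPM in the Ptprc class and 0.0234 CPM in the remaining class, and all such limits cover counting error only. On the opposite strand Fezf2 had 13 reads, of which 12 came from the Msln class, 6 each in the libraries labelled gp38-high TG- replicate 1 and gp38-low TG- replicate 4.

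All 17 listed cofactors of these regulators passed the filter on low counts in the class comparisons. In the Ptprc class 8 were higher and 4 lower than in the remaining class (edgeR adjusted p under 0.05), in a comparison where 77.2% of 17913 genes were called. The median log2 difference was 0.09 over the 17 and -0.15 over all genes. Parp1, a DNA repair enzyme found with Aire, was 141, 187 and 260 CPM (lowest, median and highest) in the Ptprc class and 43.8, 50.7 and 60.9 CPM in the remaining class, a log2 difference of 2.19 ± 0.14 (edgeR adjusted p = 3.61e-14). Cdk9, the kinase that releases paused RNA polymerase, was higher by 1.12 ± 0.12 (edgeR adjusted p = 3.27e-09). Mbd1, a methyl-CpG binding partner of Atf7ip and Aire, rose in the Ccl21a class, at 90.5 to 138 CPM against 46.8 to 87.8 CPM in the remaining class (0.89 ± 0.12, edgeR adjusted p = 6.79e-07). In the Ccl21a class 4 of the 17 were higher and 1 lower, where 46.7% of all genes were called, and in the Msln class 3 were higher and 1 lower, where 36.5% were called.

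**Figure D2:**
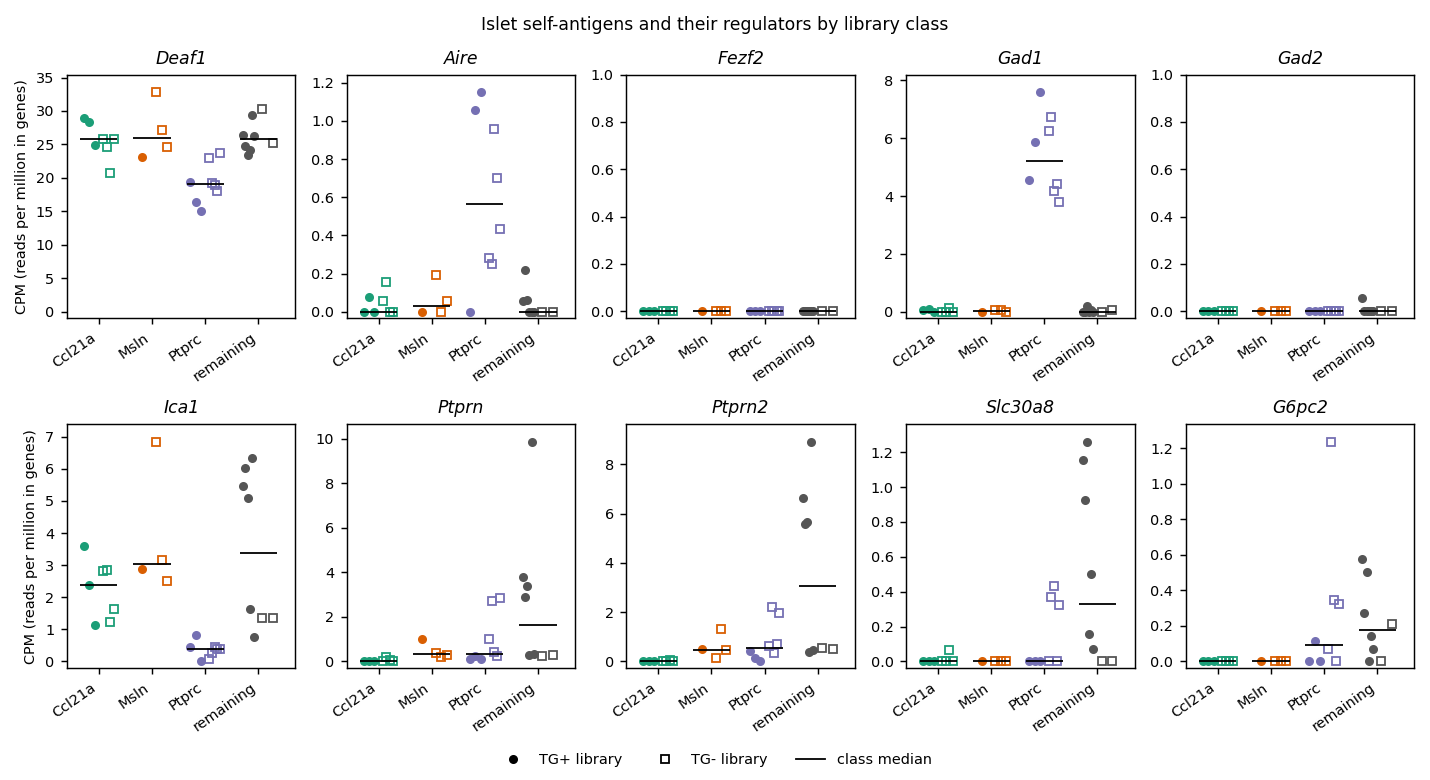
CPM of each member (vertical axes, own scale per gene) in the 27 libraries by class; filled circles are TG+ libraries, open squares TG- libraries and lines class medians. Deaf1 lies between 15.1 and 32.8 CPM everywhere, Gad1 is at 3.78 CPM or more only in the Ptprc class, with 0.189 CPM the highest value elsewhere, and Fezf2 is at 0 throughout.

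The forms of glutamate decarboxylase, the enzyme that makes the transmitter GABA, differed in these libraries. Gad1 encodes the 67 kDa form and Gad2 the 65 kDa form, the better known target of autoantibodies in human type 1 diabetes. Gad1 (ENSMUSG00000070880.10, chromosome 2, 70553072 to 70602014) was at 3.78, 5.22 and 7.59 CPM (lowest, median and highest; 42 to 109 reads) in the 8 libraries of the Ptprc class. It was at 0 to 0.189 CPM in the other 19 libraries, with 11 reads in all. The Ptprc class did not overlap any other class, and every library of it, whatever its label, was above every other library.

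Gad1 rose in the Ptprc class by 7.08 ± 0.48 on the log2 scale against the remaining class, which held 5 Gad1 reads in 8 libraries (edgeR adjusted p = 1.14e-13). Without the libraries with Cpa1 above 100 CPM it was 8.01 ± 0.76 (edgeR adjusted p = 7.53e-09). With the class limits doubled, the library labelled lymph node FRC TG- replicate 4, which has 70 Gad1 reads, moved to the remaining class and the difference was 3.44 ± 0.90 (edgeR adjusted p = 0.00176). Gad1 passed the filter on low counts only through Ptprc class libraries, so these p-values describe a gene selected through the class tested. Gad1 was 6.74 and 3.78 CPM in the libraries with Ins2 at 82.4 and 71.1 CPM, and 7.59 CPM in the library with Ins2 at 0.805 CPM. The 3 TG+ libraries of the class had 4.57, 5.87 and 7.59 CPM, against 3.78, 4.18, 4.43, 6.23 and 6.74 CPM in its 5 TG- libraries, and the genotypes overlapped. Genes of more than 1 leukocyte type were high in the same 8 libraries, with Cd3e (T cells) at 132 to 379 CPM and Lyz2 (myeloid cells) at 739 to 4506 CPM. Which leukocytes or other cells held the Gad1 reads was not tested.

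Gad2 (ENSMUSG00000026787.3, chromosome 2, 22622205 to 22693874) gave 1 read in the 27 libraries, in the library labelled CD45 TG+ replicate 2 of the remaining class. In the Ptprc class it had 0 reads, which allows up to 0.0301 CPM over the class. Per kilobase of exon, Gad1 had a median level of 0.683 CPM in the Ptprc class and Gad2 a level of 0.

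Ica1 (ENSMUSG00000062995.12, chromosome 6, 8630527 to 8778488) encodes ICA69, a BAR domain protein of secretory granule and vesicle formation. Unlike Gad1 it was found in every library of the 3 stromal classes and was lowest in the Ptprc class. It was at 1.14, 2.36 and 3.60 CPM (lowest, median and highest) in the Ccl21a class. In the Msln class it was at 2.88, 6.84, 3.16 and 2.51 CPM. It was at 0, 0.383 and 0.822 CPM in the Ptprc class and in the remaining class at 0.754, 3.36 and 6.33 CPM. The Ptprc class overlapped the remaining class by 1 library, labelled lymph node FRC TG+ replicate 3, and did not overlap the Ccl21a or the Msln class.

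Ica1 fell by 3.07 ± 0.46 on the log2 scale in the Ptprc class against the remaining class (edgeR adjusted p = 7.03e-07). Against the remaining class it was not called in the Ccl21a class, at -0.49 ± 0.39 (edgeR adjusted p = 0.312; 95% interval -1.25 to 0.27), nor in the Msln class, at -0.11 ± 0.45 (edgeR adjusted p = 0.882; 95% interval -0.99 to 0.77), where the unscaled mean was 3.85 CPM in the Msln class and 3.50 CPM in the remaining class. The remaining class itself was split, with Ica1 at 5.10 to 6.33 CPM in its 4 libraries with Cpa1 above 100 CPM and 0.754 to 1.63 CPM in the other 4. Without the libraries with Cpa1 above 100 CPM the direction turned: Ica1 was then higher in the Msln class by 1.24 ± 0.43 (edgeR adjusted p = 0.0233) and at 0.81 ± 0.40 in the Ccl21a class (edgeR adjusted p = 0.0969). It was then still lower in the Ptprc class, at -1.51 ± 0.53 (edgeR adjusted p = 0.0170).

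Markers of duct cells (6 genes) moved with Ica1 in the Msln and remaining classes. The 5 libraries with Ica1 above 5 CPM, which were the 4 named above and the Msln class library labelled gp38-high TG- replicate 1, had summed duct markers of 2510 to 3359 CPM, and the other 7 had at most 1722 CPM. Krt19 is on both the duct and the mesothelial list, so the duct sums of the Msln class are not specific to duct cells. Of the 6 duct genes, 1 was called higher in the Msln class than in the remaining class. The part of duct RNA in these Ica1 values was not tested. In the Ccl21a class duct markers summed to 15.4 to 50.4 CPM and Cpa1 to at most 0.118 CPM, and there Ica1 had 11 to 61 reads in each of 7 libraries.

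Ptprn and Ptprn2 encode IA-2 and IA-2 beta, receptor-like phosphatase family proteins of dense-core granules. Ptprn2 (ENSMUSG00000056553.14, chromosome 12, 116485720 to 117276849) had 1 read over the 7 libraries of the Ccl21a class. It was at 0.492, 0.144, 1.32 and 0.467 CPM in the Msln class. Its values were 0, 0.536 and 2.23 CPM (lowest, median and highest) in the Ptprc class and in the remaining class at 0.397, 3.08 and 8.92 CPM. The 4 libraries of the remaining class with Cpa1 above 100 CPM had 5.60 to 8.92 CPM, and the other 4, at 0.397 to 0.558 CPM, lay within the ranges of the Msln and Ptprc classes.

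Ptprn2 was called lower in all 3 class comparisons. The 4 libraries of the remaining class with Cpa1 above 100 CPM held 432 of its 461 reads, and the Msln and Ptprc calls rest on them. The other 4 held 29 reads, at 0.397 to 0.558 CPM. Each of these was above every library of the Ccl21a class, where the highest value was 0.0638 CPM, so only the size of that difference rests on the libraries high in Cpa1. The log2 difference from the remaining class was -7.49 ± 1.14 in the Ccl21a class (edgeR adjusted p = 2.83e-06), where the pooled reads, 1 against 461, give a ratio of 369.7-fold lower with an exact 95% counting interval of 66.0 to 14634. It was -2.72 ± 0.85 in the Msln class (edgeR adjusted p = 0.0134) and -1.72 ± 0.63 in the Ptprc class (edgeR adjusted p = 0.0155). Without the 8 libraries with Cpa1 above 100 CPM neither Ptprn2 nor Ptprn passed the filter on low counts, so neither has a tested difference free of these libraries.

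Ptprn (ENSMUSG00000026204.15, chromosome 1, 75247027 to 75264502) showed the same split. It had 5 sense reads over the Ccl21a class and was at 0.985, 0.383, 0.211 and 0.292 CPM in the Msln class. Its values were 0.109, 0.335 and 2.87 CPM in the Ptprc class and in the remaining class at 0.223, 1.61 and 9.86 CPM. The 4 libraries of the remaining class with Cpa1 above 100 CPM had 2.88, 3.40, 3.81 and 9.86 CPM and the other 4 at most 0.343 CPM. The log2 difference was -5.40 ± 1.06 in the Ccl21a class (edgeR adjusted p = 1.02e-04), -2.67 ± 0.97 in the Msln class (edgeR adjusted p = 0.0314) and -0.98 ± 0.69 in the Ptprc class (edgeR adjusted p = 0.194). The Msln call was lost without any one of the libraries labelled gp38-high TG- replicate 1, gp38-low TG- replicate 4, gp38-low TG+ replicate 2 and lymph node FRC TG- replicate 2, with adjusted p of 0.0784, 0.0964, 0.0805 and 0.0807 (edgeR). Without the libraries with Ins2 above 10 CPM, the Ptprn difference in the Ptprc class was -2.39 ± 0.81 (edgeR adjusted p = 0.0104). That cut removed the Ptprc class libraries labelled gp38-high TG- replicate 2 and lymph node FRC TG- replicate 4, with 44 and 53 Ptprn reads. The whole class held 123. In the remaining class only the library labelled CD45 TG+ replicate 4 was removed, and the one at 9.86 CPM stayed. No direction is therefore read from this difference.

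The share of all 17913 genes called lower was 24.1% in the Ccl21a class, 18.4% in the Msln class and 41.8% in the Ptprc class, and the share called higher was 22.6%, 18.1% and 35.4% in that order. Only 6 members passed the filter on low counts. Among these Aire and Gad1 had 6 or fewer reads in each of the Ccl21a, Msln and remaining classes, and Ptprn and Ptprn2 did not pass without the libraries with Cpa1 above 100 CPM, so nothing is read from how many of the 6 were called. All 3 comparisons share the libraries of the remaining class. The 4 members that did not pass the filter, Fezf2, Gad2, Slc30a8 and G6pc2, were not tested there.

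**Figure D3:**
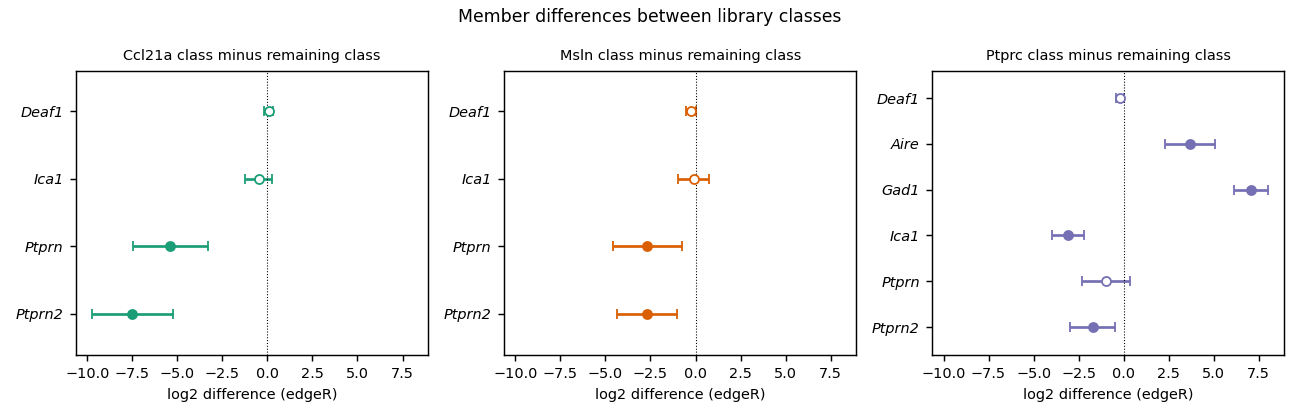
Log2 difference of each member between a class and the remaining class (horizontal axis) with its 95% interval; filled points were called at an edgeR adjusted p under 0.05, and Aire and Gad1 are drawn only in the Ptprc class, since they were near the floor in the other classes. Gad1 is at 7.08 and Aire at 3.68 in the Ptprc class, Ica1 at -3.07 there, and Ptprn2 is at -7.49, -2.72 and -1.72 in the Ccl21a, Msln and Ptprc classes.

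Reads at Ptprn came from both strands. Ptprn shares 189 exon bases with Gm28294, a gene on the opposite strand, and had 487 sense reads and 1226 opposite-strand reads, so that 28.4% of the stranded reads were sense. For the other members with a sense read that share was 98.6% or more. The Ccl21a class had 5 sense and 355 opposite-strand reads, the Msln class 31 and 433, the Ptprc class 123 and 158, and the remaining class 328 and 280. Counted without strand, the log2 difference of Ptprn was -0.18 ± 0.41 in the Ccl21a class (edgeR adjusted p = 0.748) and turned to 0.26 ± 0.47 in the Msln class (edgeR adjusted p = 0.694). Unstranded counts held 351 reads in the Ccl21a class and 441 in the Msln class, so they kept most opposite-strand reads. They mix both strands of Ptprn, and whether the opposite-strand reads come from Gm28294 was not tested.

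**Figure D4:**
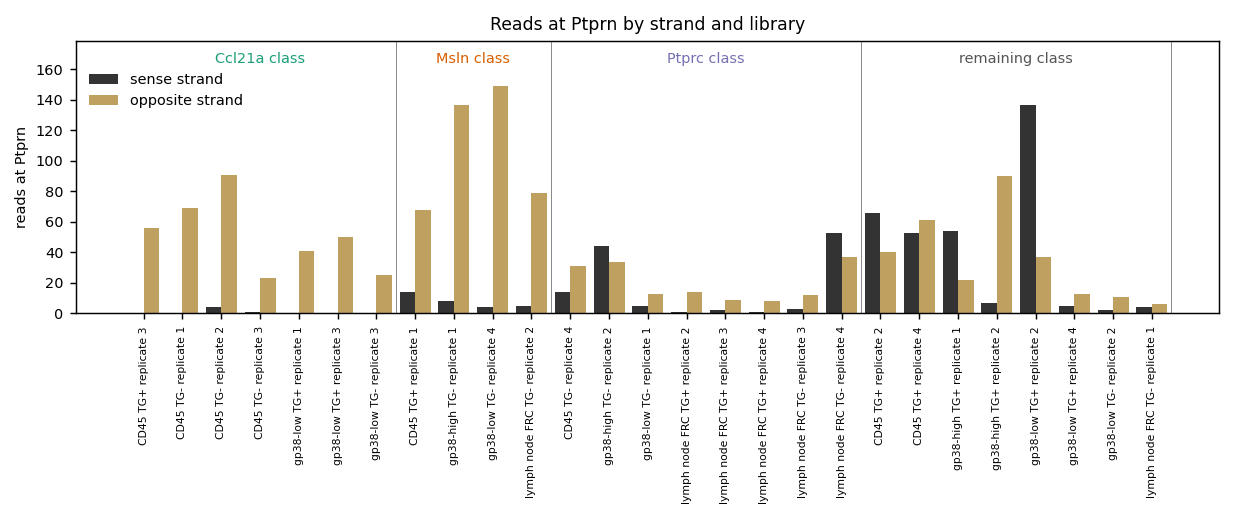
Reads at Ptprn (vertical axis) on its own strand (dark bars) and on the opposite strand (light bars) in each of the 27 libraries, grouped by class. Opposite-strand reads outnumber sense reads in every library of the Ccl21a and Msln classes, and the tallest sense bar is the library labelled gp38-low TG+ replicate 2.

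Slc30a8 and G6pc2, whose products are made mainly in islet cells, gave few reads. Slc30a8 (ENSMUSG00000022315.3, chromosome 15, 52295553 to 52335798) encodes ZnT8, the transporter that loads zinc into insulin granules. It had 1 read in the Ccl21a class, 0 in the Msln class, 17 in the Ptprc class and 69 in the remaining class. Of those 69, 64 were in the 4 libraries with Cpa1 above 100 CPM, at 0.504 to 1.26 CPM. The pooled level was 55.3-fold lower in the Ccl21a class than in the remaining class (exact 95% counting interval 9.61 to 2217) and at least 12.8-fold lower in the Msln class, from a floor of 3 reads over the class.

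G6pc2 (ENSMUSG00000005232.11, chromosome 2, 69211073 to 69227841) encodes IGRP, an islet glucose-6-phosphatase and a target of CD8 T cells in NOD mice. It had 0 reads in the Ccl21a and Msln classes, 32 in the Ptprc class and 29 in the remaining class. Its pooled level was at least 7.75-fold lower in the Ccl21a class and at least 5.36-fold lower in the Msln class than in the remaining class, from the same floor. Of the 29 reads of the remaining class, 25 were in the 4 libraries with Cpa1 above 100 CPM, and the other 4 libraries held 4 reads, so these bounds rest on the libraries high in Cpa1. In the Ptprc class 20 of the 32 reads came from the library labelled gp38-high TG- replicate 2, at 1.24 CPM, which also had the highest Ins2, at 82.4 CPM.

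The highest values of the granule genes were in libraries that also held RNA of islet hormones, including Gcg (glucagon). The library labelled gp38-low TG+ replicate 2 had the highest Ptprn, at 9.86 CPM, and the highest Ptprn2, at 8.92 CPM, with Ins2 at only 0.647 CPM. In it Gcg was 225 CPM, Sst (somatostatin) 201 CPM and Ppy (pancreatic polypeptide) 142 CPM. The Ptprc class libraries labelled gp38-high TG- replicate 2 and lymph node FRC TG- replicate 4 had the highest Ins2, at 82.4 and 71.1 CPM, with Ptprn at 2.72 and 2.87 CPM, Ptprn2 at 2.23 and 1.95 CPM, and Gcg at 71.7 and 42.1 CPM. In the Ccl21a class Gcg was at most 0.191 CPM and Sst at most 0.0516 CPM. The part of islet RNA in the values of Ptprn, Ptprn2, Slc30a8 and G6pc2 was not tested.

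**Figure D5:**
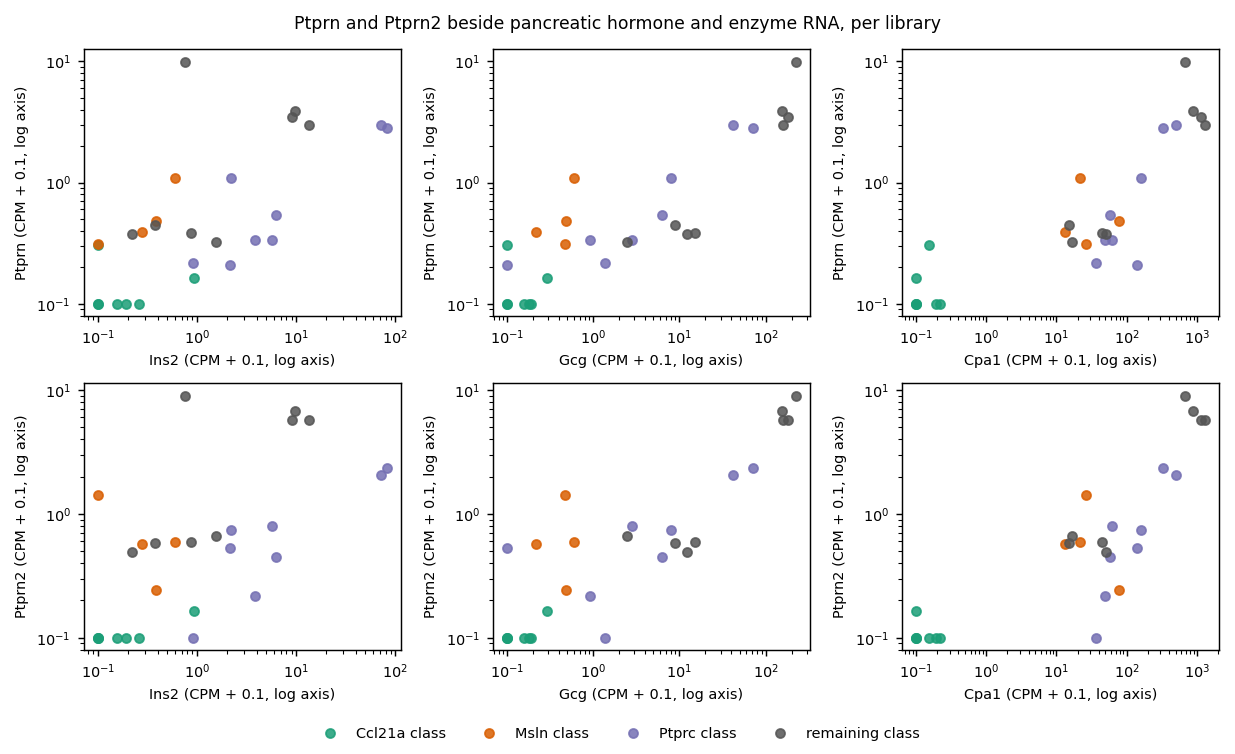
Ptprn (top) and Ptprn2 (bottom) against Ins2, Gcg and Cpa1 in each library, all as CPM + 0.1 on log axes and coloured by class. The highest Ptprn and Ptprn2 values, 9.86 and 8.92 CPM, are in a library with Ins2 at 0.647 CPM and Gcg at 225 CPM.

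Per kilobase of exon, the levels in the 4 libraries of the remaining class with Cpa1 above 100 CPM were highest for Deaf1, at a median of 5.83 CPM per kilobase, then Ica1 at 1.77, Ptprn at 0.848, Ptprn2 at 0.715, Slc30a8 at 0.527 and G6pc2 at 0.196. The range of Ica1 (1.57 to 1.95) lay inside that of Ptprn (0.678 to 2.32), and the ranges of Ptprn and Ptprn2 (0.651 to 1.04) overlapped. The range of Slc30a8 (0.255 to 0.639) overlapped that of G6pc2 (0.0729 to 0.292). In the same libraries Gcg had a median of 114 CPM per kilobase and Ins2 one of 7.12.

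Other islet genes in the classes were read from lists of known genes. Of 13 further islet autoantigens, 2 were higher and 8 lower in the Ccl21a class, 2 higher and 7 lower in the Msln class, and 2 higher and 8 lower in the Ptprc class, each against the remaining class. Of all genes 22.6%, 18.1% and 35.4% were called higher and 24.1%, 18.4% and 41.8% lower in these comparisons. The median log2 difference was -1.86, -0.65 and -1.41 over the 13 and -0.0022, -0.020 and -0.15 over all genes, in that order. Tspan7, a tetraspanin and autoantigen, was at 86.5, 96.5 and 115 CPM (lowest, median and highest) in the Ccl21a class, at 72.2, 86.1 and 98.8 CPM in the Msln class, at 0.690, 1.78 and 2.17 CPM in the Ptprc class, and at 24.9, 46.7 and 64.2 CPM in the remaining class. It rose in the Ccl21a class by 1.25 ± 0.16 (edgeR adjusted p = 1.65e-07) and in the Msln class by 0.68 ± 0.18 (edgeR adjusted p = 0.00444), and fell by 4.49 ± 0.19 in the Ptprc class (edgeR adjusted p = 1.52e-18). Hspd1, the mitochondrial chaperonin, was the other gene that rose in the Ccl21a class (1.66 ± 0.19, edgeR adjusted p = 1.54e-08). Cpe, the granule carboxypeptidase that trims proinsulin, rose in the Msln class, where it was 109 to 183 CPM, against 5.13 to 59.3 CPM in the remaining class (2.24 ± 0.45, edgeR adjusted p = 2.73e-04). In the Ptprc class the 2 that rose were Ins1 and Ins2, with Ins2 higher by 2.62 ± 0.88 (edgeR adjusted p = 0.00846). The libraries labelled gp38-high TG- replicate 2 and lymph node FRC TG- replicate 4 held 1333 and 1316 of the 2880 Ins2 reads. Ins2 was 0.805 to 82.4 CPM in the Ptprc class and 0.119 to 13.3 CPM in the remaining class, so the classes overlapped.

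Of 26 listed beta and endocrine genes, 20 were tested. In the Ccl21a class 18 were lower and 1 higher, in the Msln class 12 lower and 4 higher, and in the Ptprc class 12 lower and 4 higher. The gene that rose in the Ccl21a class was Scg3, a granin of secretory granules, at 33.0 to 77.6 CPM against 12.3 to 25.9 CPM in the remaining class (1.69 ± 0.29, edgeR adjusted p = 1.47e-05). All 19 acinar genes were lower in the Ccl21a and in the Msln class, and 4 of the 19 were lower in the Ptprc class. The lower calls of both lists stand beside 24.1%, 18.4% and 41.8% of all genes called lower in the Ccl21a, Msln and Ptprc comparisons. The higher calls stand beside 22.6%, 18.1% and 35.4% called higher. Cpa1 itself differed by -13.25 ± 1.46 in the Ccl21a class (edgeR adjusted p = 1.23e-08). In the remaining class Cpa1 was 673 to 1309 CPM in 4 libraries and 15.0 to 50.4 CPM in the other 4. The Msln class, at 13.2 to 76.6 CPM, overlapped those other 4, while the Ccl21a class, at most 0.118 CPM, lay below them. Neither list was tested without the libraries high in Cpa1, so no trait of the Msln class is read from its lower calls.

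The transgene comparison asked whether the members differed between TG+ and TG- libraries. By label, no gene was called in any population by edgeR (0% called). The tests covered 14871 genes in CD45, 17937 in gp38-high, 14095 in gp38-low and 13819 in lymph node FRC. In these 1402, 920, 273 and 981 genes had an unadjusted p under 0.05, and DESeq2 called 427, 40, 1 and 549 genes. Members that could be tested numbered 3, 5, 2 and 3, and their smallest adjusted p was 0.612, 0.663, 0.999 and 0.889 (edgeR). Without the library labelled CD45 TG+ replicate 3, the only TG+ library of its label in the Ccl21a class, edgeR called 519 genes in CD45.

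The levels by label followed the classes. Gad1 was at 4.57, 5.87 and 7.59 CPM in the TG+ libraries labelled lymph node FRC, all of the Ptprc class, and at 3.78 and 4.43 CPM in the TG- libraries of that label in the Ptprc class and at most 0.0706 CPM in the other 2. Its log2 difference there was 1.66 ± 1.50 (edgeR adjusted p = 0.889). Ica1 in CD45 averaged 4.50 ± 1.50 CPM in TG+ and 1.73 ± 1.34 CPM in TG- libraries (SD, n = 4 each), a log2 difference of 1.24 ± 0.78 (edgeR adjusted p = 0.612). The lowest TG- library, at 0.0708 CPM, was the only one of its label in the Ptprc class.

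With the class as a covariate over all 27 libraries, edgeR and DESeq2 called 0 of 20045 genes (0% called; 1875 at an unadjusted p under 0.05 by edgeR). Of the members, 8 were tested and the smallest adjusted p was 0.531. Deaf1 differed by -0.17 ± 0.09 (95% interval -0.35 to 0.02), Ica1 by 0.44 ± 0.37 (-0.28 to 1.16) and Gad1 by 0.23 ± 0.40 (-0.56 to 1.03), as TG+ minus TG-. These intervals bound the differences but do not show that the genotypes were alike, and the remaining class held 6 TG+ and 2 TG- libraries, with all 4 of its libraries with Cpa1 above 100 CPM being TG+.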

How the data were processed

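RNA was measured in sorted mouse cells, in 27 libraries made after depletion of ribosomal RNA, according to the labels' protocols. The deposited files hold the authors' counts per gene in 3 columns (unstranded and each strand). They were made with bcl2fastq 2.17, Trim Galore 0.4.3, STAR 2.5.2a and mm10, per the submitters' processing notes. The sources used here do not give the annotation release behind the counts. The reverse-strand count column was used, since the forward column held 6.67% to 15.3% of stranded reads. Reads assigned to no gene, 51.7% to 79.7% of a library's reads in the table, entered neither the library sizes nor the tests. Symbols came from GENCODE M21 (54409 of 54446 identifiers matched), which uses the mm10 assembly.

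CPM was computed over reads in genes. Differences were tested with edgeR 4.0.16 in R 4.3.3 (TMM factors, filterByExpr, robust quasi-likelihood F test, Benjamini-Hochberg adjustment at 0.05). Each SE is the log2 difference divided by the square root of F, in absolute value. The gp38-high effect (2 against 2 libraries) was fitted with the gp38-low libraries included, to borrow their spread. Libraries were assigned to classes in the order Ptprc, Ccl21a, Msln, remaining. Alternatives were DESeq2 1.42.0, RLE factors, no filter, unstranded counts, class limits doubled or halved, leaving out libraries with Ins2 above 10 CPM or (added after seeing the data) Cpa1 above 100 CPM, a replicate block, and leaving out single libraries. The tests were tried on simulated data first. No pair of libraries agreed within sampling noise.

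The members and lists were chosen with earlier results of these data known. Named genes were the 10 members, the class genes, Ins2 and Cpa1, at most 4 genes per list that passed a test or reached 5 CPM in a discussed library, and, for each member with at least 10 reads in at least 20 libraries, the 3 genes with the highest Spearman correlation of CPM (average log2 CPM at least 1). The leukocyte genes Cd3e and Lyz2, the thymic genes and the genes overlapping a member on the other strand were named outside that rule. RefSeq promoter sequences matched 9 of the 10 members.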

Additional observations from a re-analysis of the deposited data

Results flagged for a closer look

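In 3 cases 1 library lay farther from the rest of its class than Dixon's 95% criterion allows, a criterion that chance passes in about 1 in 20 groups. G6pc2 was at 1.24 CPM in the library labelled gp38-high TG- replicate 2 of the Ptprc class, where the next highest was 0.348 CPM. Ica1 was at 6.84 CPM in the library labelled gp38-high TG- replicate 1 of the Msln class, where the other 3 were at 2.51 to 3.16 CPM, and that library had the highest summed duct markers, at 3359 CPM. That sum includes Krt19, also a mesothelial marker. Ptprn was at 9.86 CPM in the library labelled gp38-low TG+ replicate 2 of the remaining class, where the next highest was 3.81 CPM, and that library had the highest Gcg, at 225 CPM.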

How the results depend on the processing

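Counts of called genes moved by more than 1.5 times only for the transgene effect by label. DESeq2 called 427 genes in CD45 (357 higher), 40 in gp38-high, 1 in gp38-low and 549 in lymph node FRC, against 0 by edgeR, and leaving out 1 library gave 0 to 519 in CD45. The replicate block left the count at 0 in each population. Same-numbered TG+ and TG- libraries of a population correlated at -0.144 to 0.614 in their deviations from group means. The highest value was for gp38-low replicate 3, where both libraries were of the Ccl21a class. The labelled groups mix classes, so these values cannot decide whether the numbers pair libraries, and the main tests used no pairing. Same-numbered libraries of different populations were not correlated in this way. In a check of all pairs for duplicates, the closest had unlike numbers (CD45 TG- replicate 4 and lymph node FRC TG+ replicate 2, chi-square per gene 6.45). Next came the libraries labelled CD45 TG+ replicate 2 and gp38-low TG+ replicate 2, at 7.85. Both of these are remaining class libraries with Cpa1 above 100 CPM, and whether they share animals was not tested.

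Aire, Gad1, Ica1 and Ptprn2 kept their calls in the Ptprc class under every alternative that gave a value. Aire and Gad1 passed the filter only through Ptprc class libraries, and Ptprn2 did not pass it without the libraries with Cpa1 above 100 CPM. The kept calls of Aire, Gad1 and Ptprn2 are therefore no added support. Ptprn lost its call with unstranded counts in the Ccl21a class (-0.18) and without the filter in the Msln class (-2.65, adjusted p = 0.0600), where unstranded counts gave 0.26 and leaving out 1 library -3.33 to -2.01. Without the libraries with Cpa1 above 100 CPM, Deaf1 turned to -0.067 in the Ccl21a class, Ica1 to 0.81 in the Ccl21a and 1.24 in the Msln class, and the transgene effect on Ica1 with class as a covariate to -0.10. Ica1 in the Msln class also turned with class limits doubled (0.033), without libraries with Ins2 above 10 CPM (0.091) and when 1 library was left out (-0.452 to 0.045), and Gad1 in the class-adjusted transgene effect spanned -0.0011 to 0.331 when 1 library was left out. Deaf1 in the Ptprc class was called with class limits doubled (-0.34). The cause was not tested. Aire did not pass the filter with unstranded counts or without the libraries high in Ins2 or Cpa1, nor in 4 of 16 fits that left out 1 library. At these depths a member under 0.119 CPM could not be told from 0 in a single library.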

Other observations

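Tissue-restricted genes from outside the pancreas, such as those that Aire switches on in the thymus, were called in both directions. Of 16 listed, 15 were found in the annotation and 6 passed the filter. Mbp, a myelin protein gene that leukocytes also express in a longer form, was at 152 to 216 CPM in the Msln class and 83.5 to 168 CPM in the Ptprc class, against 16.4 to 66.1 CPM in the remaining class (2.02 ± 0.28 and 1.96 ± 0.24 on the log2 scale, edgeR adjusted p = 1.26e-06 and 2.88e-08). Tg, which encodes thyroglobulin, was at 0.979 to 3.39 CPM in the Ptprc class and at most 0.0630 CPM in the remaining class. Alb and Ambp, genes of plasma proteins made in liver, were at most 0.236 CPM in the Ccl21a class, and Ambp was at 12.0 to 203.8 CPM in the Msln class and 29.4 to 252.8 CPM in the remaining class. In the Ccl21a, Msln and Ptprc classes 1, 2 and 2 of the 6 were higher and 3, 0 and 4 lower than in the remaining class, while of all tested genes 22.6%, 18.1% and 35.4% were higher and 24.1%, 18.4% and 41.8% lower.

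Of 15 paralogs of the members, 8 passed the filter. Csad, a decarboxylase related to Gad1, was at 51.9 to 66.1 CPM in the Ccl21a class, 34.5 to 45.0 CPM in the Msln class, 5.06 to 13.0 CPM in the Ptprc class and 25.2 to 29.5 CPM in the remaining class, so its order was unlike that of Gad1. It rose in the Ccl21a class by 1.26 ± 0.14 (edgeR adjusted p = 7.94e-09) and fell by 1.52 ± 0.14 in the Ptprc class (edgeR adjusted p = 5.31e-11). Slc30a1, a zinc exporter of the cell surface, rose in the Msln class (0.86 ± 0.20, edgeR adjusted p = 0.00105). Slc30a4 and Slc30a7, zinc transporters of vesicles and the Golgi, fell by 1.85 ± 0.18 and 1.21 ± 0.15 in the Ptprc class (edgeR adjusted p = 3.54e-10 and 3.51e-08). In the Ccl21a, Msln and Ptprc classes 1, 1 and 1 of the 8 were higher and 0, 1 and 5 lower, to be read against the same shares of all genes.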
